A study of Saccharomyces cerevisiae with 12 samples.

Results

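The cell wall integrity pathway is the signalling route by which budding yeast senses damage to its wall. Sensors in the plasma membrane act through the GTPase Rho1 and the protein kinase Pkc1 on a kinase cascade that ends in the MAP kinase Slt2, and Slt2 in turn acts on the transcription factors Rlm1 and SBF. The output is a set of genes that build, cross-link and trim the wall, a network of glucan, chitin and mannoproteins. The 10 genes described here are GSC2, FKS1, YPS1, YPS3, SLT2, CRH1, PIR3, CWP1, PST1 and SED1, out of 5656 genes with a probe set of their own. They were chosen by name as outputs of this pathway, with earlier results of these data known. Each was read from the probe set whose annotation names that gene alone, and from the brightest such set where there were several.

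Saccharomyces cerevisiae S288C was grown in 12 cultures, each measured on 1 Affymetrix array. Of the 4 groups of 3 cultures, the control received solvent alone (dimethylformamide), and the others received fenpropimorph (0.313 ppm), tomatidine (0.625 ppm) or its glycoside tomatine (13.9 ppm) in that solvent. Exposure lasted 5 h at 30 °C after 1 h of growth from an OD600 of 0.1, and each of 3 days gave 1 culture of every group. Tomatine is a steroidal glycoalkaloid of tomato, tomatidine is tomatine without its sugars, and fenpropimorph is a morpholine fungicide that inhibits the sterol enzymes ERG24 and ERG2. Groups and doses are those of the sample titles, since another label names tomatidine for every culture. RNA came from whole cultures, so a change in every cell and a change in the share of cells that express a gene cannot be told apart. Signals below are the authors' array values, log2 fold changes are given ± the standard error of the fit (n = 3 arrays a group), and a gene was called at an adjusted p under 0.05 over all 9275 tested probe sets.

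The arrays had medians of 77.2 to 78.6 and correlated at 0.995 to 0.997 within groups, and precision is limited by having 3 arrays in a group. The alpha-cell genes STE3, SAG1 and MF(ALPHA)2 had signals of 373 to 2709 on the 12 arrays, and the a-cell genes STE2 and BAR1 had 6.23 to 15.1 and MFA1 53.4 to 66.6. All 3 alpha-cell genes fell with fenpropimorph (log2 fold changes -1.07, -2.02 and -2.09), SAG1 and MF(ALPHA)2 fell with tomatidine (-0.69 and -0.75), and the dim BAR1 was called higher with fenpropimorph (0.39), a call lost without control 1, control 3, fenpropimorph 2 or fenpropimorph 3 (adjusted p = 0.12, 0.0546, 0.0966 and 0.0814). The 3′ to 5′ log2 ratio of the array's control gene ACT1 was 0.35 ± 0.0244 (SD, n = 3) in control and 0.37 ± 0.093 with fenpropimorph, and that of SPT15 was 2.33 ± 0.174 and 2.34 ± 0.077. With tomatidine these ratios were 0.46 ± 0.128 and 1.82 ± 0.285. The part of these differences in the results below was not tested.

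With fenpropimorph 7 of the 10 genes rose and 1 fell, with tomatidine 1 fell, and with tomatine none passed the test. Those 8 calls compare with 30.3% of all probe sets called with fenpropimorph (13.4% higher, 16.9% lower). The single call with tomatidine compares with 4.44% of all probe sets (1.91% lower) and the 0 calls with tomatine with 4.36%. At an unadjusted p under 0.05 (limma), 0 of the 10 passed with tomatine and 3 with tomatidine. No share of all probe sets is given at that threshold, so these counts cannot be judged as many or few. The percentages above do not apply to them. The median log2 fold change of the 10 genes was 1.04 with fenpropimorph, against -0.07 over all probe sets, and -0.05 with tomatidine and 0.00 with tomatine, against -0.02 and -0.01. Of the 7 genes that rose with fenpropimorph, 5 did so at least 2-fold, as did 3% of all probe sets. In the test for any difference among the 4 groups, 9 of the 10 were called (limma F test), against 37.2% of all probe sets, and FKS1 was the exception. SED1 lost that call without fenpropimorph 2 or fenpropimorph 3 (adjusted p = 0.088 and 0.0668), which leaves 8.

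**Figure D1:**
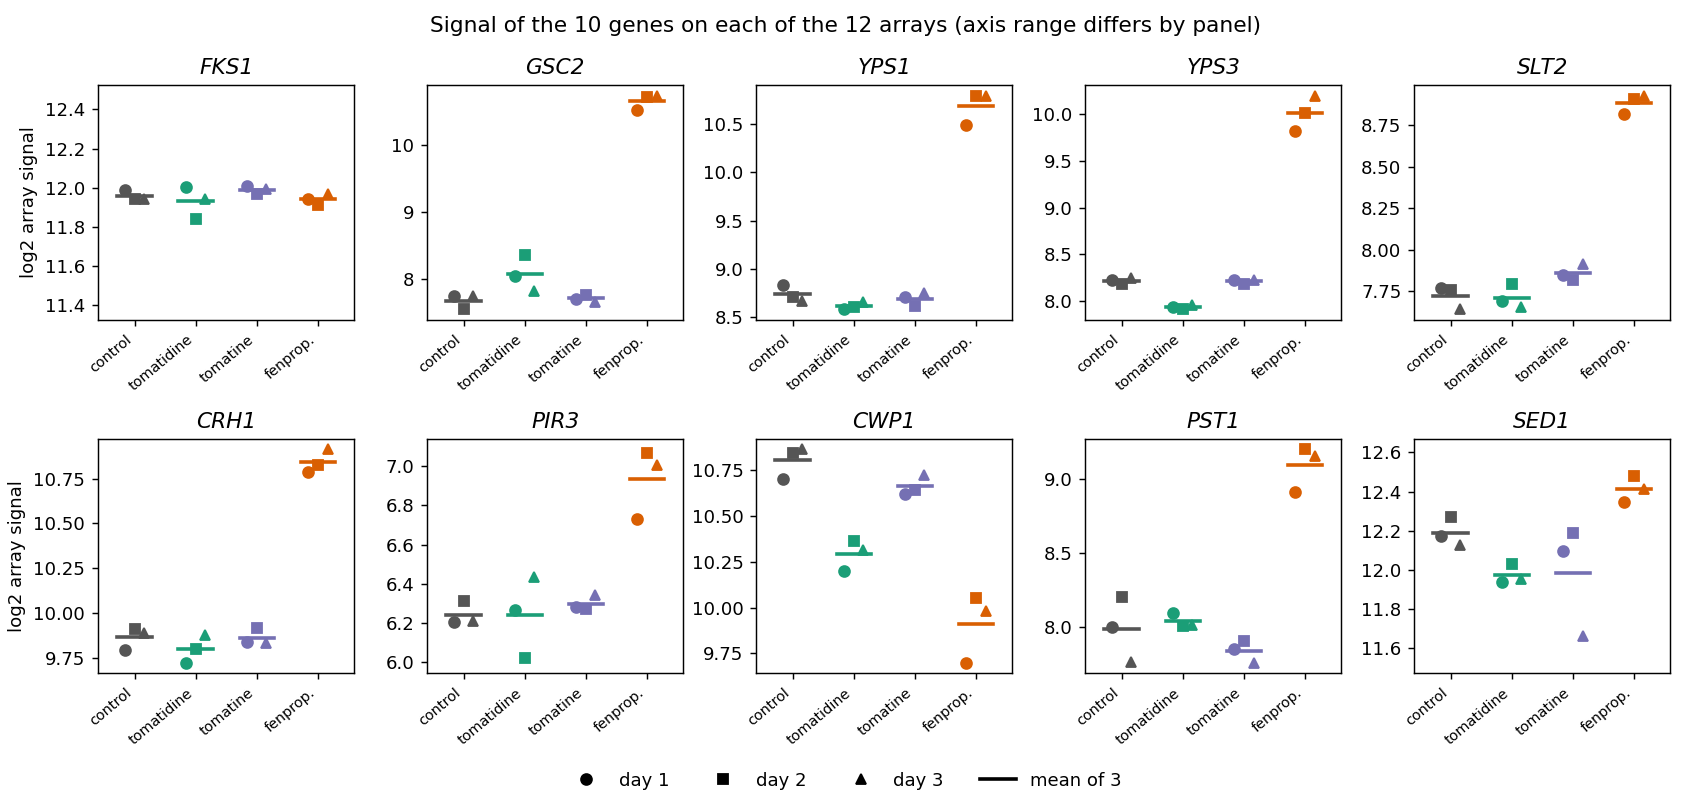
Log2 array signal of each of the 10 genes (vertical axis, with its own range in every panel) in the 4 groups (horizontal axis), with a point for each culture, shaped by day, and a bar for the mean of 3. In 7 panels the fenpropimorph points lie above all others and keep clear of the rest of the arrays, CWP1 shows the reverse order, SED1 a smaller gap and FKS1 no separation.

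Of the 2 glucan synthase genes, GSC2 rose with fenpropimorph and FKS1 was not called. FKS1 encodes the catalytic subunit that makes most 1,3-beta-glucan during growth on glucose, and GSC2 (also called FKS2) encodes the alternative subunit, known to be used under stress and in sporulation. FKS1 had signals of 4063, 3937 and 3929 on days 1, 2 and 3 in control and 3942, 3854 and 4004 with fenpropimorph. Its signals were 4109, 3669 and 3941 with tomatidine and 4125, 4003 and 4084 with tomatine. All 4 groups overlapped, and the 95% intervals of its log2 fold change against control ran from -0.14 to 0.11 with fenpropimorph, from -0.16 to 0.10 with tomatidine and from -0.09 to 0.16 with tomatine.

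GSC2 had signals of 214, 188 and 214 in control and 1478, 1679.5 and 1708 with fenpropimorph, so the lowest treated culture lay far above the highest control. The rise was 7.89-fold (log2 fold change 2.98 ± 0.118, limma adjusted p = 1.05e-08), with daily log2 differences of 2.79, 3.16 and 3.00. By log2 fold change GSC2 ranked 17th of the 5656 genes. With tomatine its signals were 209, 218 and 203, which overlapped control (log2 fold change 0.03, 95% interval -0.23 to 0.29). With tomatidine they were 264, 329 and 226, all above control, with daily differences of 0.30, 0.81 and 0.08. That difference did not pass the test (log2 fold change 0.40 ± 0.118, adjusted p = 0.0963). Without tomatidine 2, the highest culture, it was 0.25 (adjusted p = 0.331). It was called without tomatidine 3, the lowest (0.52, adjusted p = 0.0234), and when only bright probe sets were tested (0.40, adjusted p = 0.0487).

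Both genes have several probe sets, and these are given side by side. All 7 that name GSC2 alone were called higher with fenpropimorph, with log2 fold changes from 2.37 to 3.25, and 0 of 7 were called with either other compound. Of the 8 that name FKS1 alone, 0 were called with any compound by limma. Their log2 fold changes with fenpropimorph ranged from -0.61 to -0.02 (median -0.50), from -0.44 to -0.03 with tomatidine and from -0.65 to 0.03 with tomatine. The small change given above is that of the brightest FKS1 probe set, whose standard error of 0.0588 was the smallest of the 8, and the other 7 had log2 fold changes below 0 with every compound. Most of the dimmer sets of both genes have identifiers that mark possible cross-hybridisation. Within the fenpropimorph group the culture of day 1 was the lowest on 7 of the 8 FKS1 sets and on 7 of the 7 GSC2 sets. The share of all probe sets with that order is not given here.

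**Figure D2:**
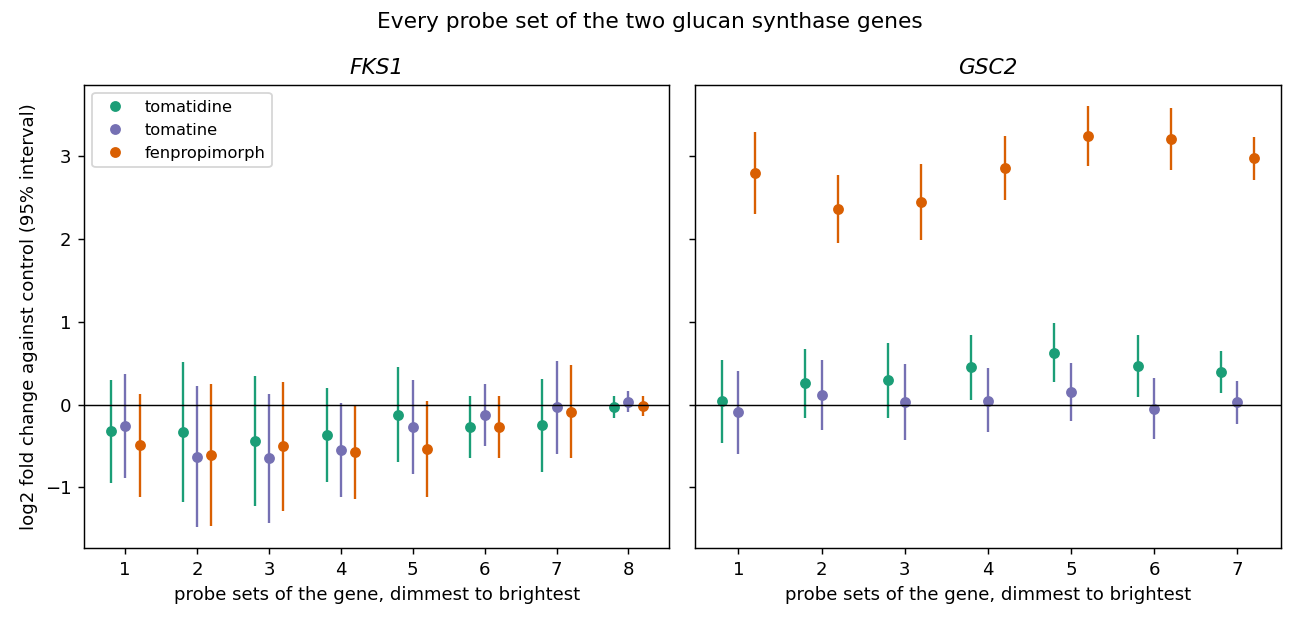
Log2 fold change against control with its 95% interval (vertical axis) for each probe set of FKS1 (8) and GSC2 (7), ordered from dimmest to brightest (horizontal axis) and coloured by compound. All GSC2 sets lie between 2.37 and 3.25 with fenpropimorph, and no FKS1 set was called.

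SLT2, the MAP kinase of the pathway, is itself transcribed under its control. Its signals were 219, 216 and 200 in control and 452, 480 and 487 with fenpropimorph, with no overlap. The rise was 2.23-fold (log2 fold change 1.16 ± 0.0651, limma adjusted p = 9.54e-08). Tomatidine gave 206, 222 and 202, which overlapped control (log2 fold change -0.01, 95% interval -0.15 to 0.13). Tomatine gave 231, 226 and 241, all above control, and the difference did not pass the test (log2 fold change 0.14 ± 0.0651, adjusted p = 0.289).

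YPS1 and YPS3 encode yapsins, aspartyl proteases held at the cell surface by a GPI anchor, which process proteins of the wall. YPS1 had signals of 457, 418 and 409 in control and 1433, 1767 and 1775 with fenpropimorph. It rose 3.86-fold (log2 fold change 1.95 ± 0.0868, limma adjusted p = 2.31e-08). YPS3 had 300.1, 290.4 and 304 in control and 899.6, 1030 and 1172 with fenpropimorph, a rise of 3.45-fold (log2 fold change 1.79 ± 0.0829, adjusted p = 2.78e-08). For both genes the fenpropimorph cultures stood clear of all 9 others. With tomatine YPS3 had signals of 300.1, 291 and 299.8, nearly those of control (95% interval of the log2 fold change -0.19 to 0.18). With tomatidine it had 245, 242 and 249, below every control culture, with daily log2 differences of -0.29, -0.26 and -0.29. This difference missed the threshold (log2 fold change -0.28 ± 0.0829, adjusted p = 0.0912). It was called when only bright probe sets were tested (adjusted p = 0.0404), without fenpropimorph 1 (0.0309) and without fenpropimorph 3 (0.0336). YPS1 with tomatidine had signals of 384.5, 391 and 403, also below control, at a log2 fold change of -0.12 (adjusted p = 0.529).

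CRH1 encodes a transglycosylase that links chitin to glucan in the wall. Its signals were 887, 963 and 947 in control and 1765, 1815 and 1929.8 with fenpropimorph, so the groups did not overlap. It rose 1.97-fold (log2 fold change 0.98 ± 0.0655, limma adjusted p = 4.27e-07), by 0.99, 0.91 and 1.03 on the 3 days. Its log2 fold changes with tomatidine and tomatine were -0.07 (95% interval -0.21 to 0.08) and 0.00 (-0.15 to 0.14).

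The 4 wall proteins did not move as one. PST1, a GPI-anchored protein known to be made when the wall is damaged, had signals of 256, 294 and 217 in control and 482, 588 and 571 with fenpropimorph. It rose 2.15-fold (log2 fold change 1.10 ± 0.108, limma adjusted p = 1.07e-05). PIR3, a protein with internal repeats that is bound covalently to glucan, had 73.7, 79.3 and 73.9 in control and 106, 134 and 128 with fenpropimorph. The rise was 1.62-fold (log2 fold change 0.69 ± 0.108, adjusted p = 0.000459), in a signal close to the array medians. In both genes the fenpropimorph cultures lay above all other cultures, while tomatidine and tomatine overlapped control.

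CWP1, a GPI-anchored mannoprotein linked to glucan, was the member that fell. Its signals were 1668, 1840.1 and 1867 in control and 831, 1061 and 1010 with fenpropimorph. It was 1.86-fold lower (log2 fold change -0.89 ± 0.0922, limma adjusted p = 1.67e-05). With tomatidine the signals were 1178, 1319.8 and 1274.5, below every control and above every fenpropimorph culture. The difference from control was 1.42-fold (log2 fold change -0.51 ± 0.0922, adjusted p = 0.00786), with daily values of -0.50, -0.48 and -0.55, and it was the only call among the 10 genes in that comparison. With tomatine they were 1573, 1597 and 1696, with 1 culture inside the range of control (log2 fold change -0.14, 95% interval -0.34 to 0.06). CWP1 thus stood 55th from the bottom of the 5656 genes with fenpropimorph and 65th with tomatidine.

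SED1, a major GPI-anchored mannoprotein that is abundant in stationary phase, had signals of 4625, 4934 and 4469.8 in control and 5208, 5709.9 and 5453 with fenpropimorph. These groups did not overlap, and the difference did not pass the test (log2 fold change 0.22 ± 0.113, limma adjusted p = 0.165). The tomatine cultures had 4384, 4668 and 3242, and the low value of day 3 widened the spread of this gene. Without tomatine 3 the log2 fold change of fenpropimorph against control was the same 0.22 and was called (adjusted p = 0.0247), which makes 9 genes called instead of 8. The log2 fold change of tomatine against control was -0.21 with that culture (adjusted p = 0.372) and -0.05 without it (adjusted p = 0.794). With tomatidine the signals were 3920.4, 4173 and 3965, below every control culture, and the log2 fold change of -0.22 was not called (adjusted p = 0.366).

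**Figure D3:**
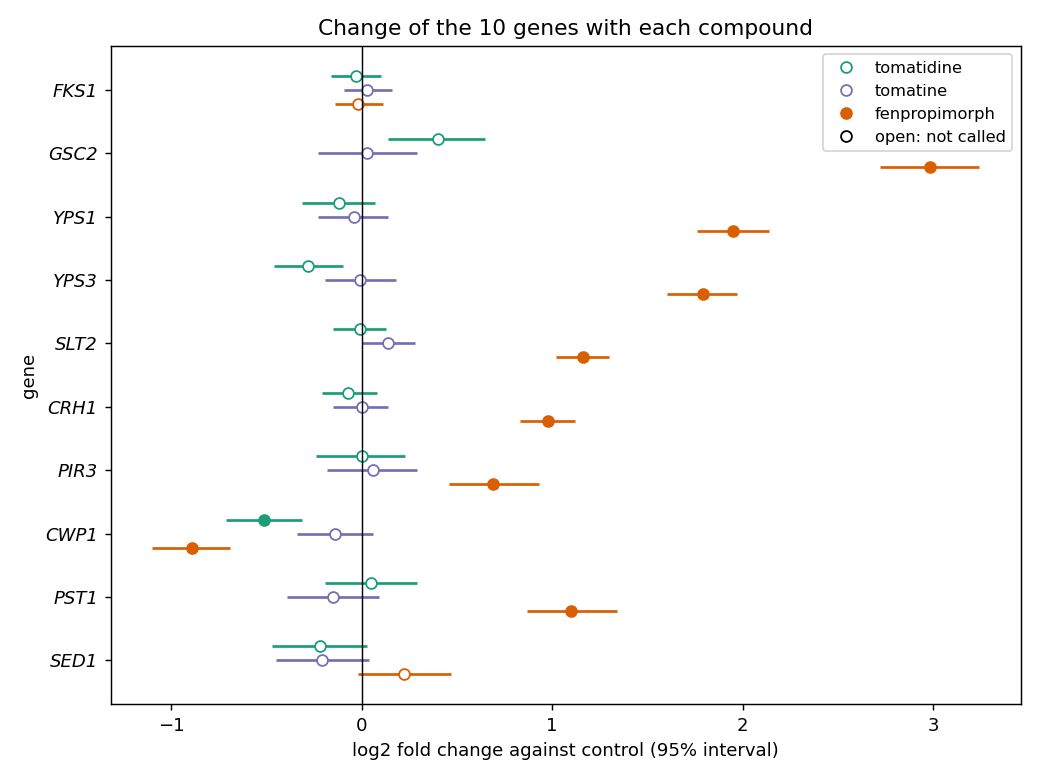
Log2 fold change of the 10 genes against control (horizontal axis, with 95% intervals) for each compound. Filled points were called: 7 genes higher and CWP1 lower with fenpropimorph, and CWP1 lower with tomatidine.

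Over the 10 genes, the fenpropimorph and control cultures did not overlap in 9, against 44.8% of all probe sets. The same held for 5 genes with tomatidine (24.1%) and for 1, SLT2, with tomatine (24.6%). The fenpropimorph culture of day 1 was the lowest of its group in 9 of the 10 genes. Without fenpropimorph 1, the same number of genes was called (7 higher and 1 lower), with log2 fold changes of 3.05 for GSC2, 2.05 for YPS1, 1.88 for YPS3 and -0.79 for CWP1. The 3 compounds share their control cultures, so the comparisons above are not independent of each other.

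Set directly against each other, fenpropimorph and tomatidine differed in 9 of the 10 genes (8 higher and 1 lower with fenpropimorph), against 30.5% of all probe sets (13.5% higher, 17% lower). Fenpropimorph and tomatine also differed in 9 (8 and 1), against 38.3% (15.9% higher, 22.5% lower). SED1 was called in both of these, at 1.36-fold and 1.35-fold higher with fenpropimorph (log2 fold changes 0.44 ± 0.113 and 0.43 ± 0.113, limma adjusted p = 0.0112 and 0.01). Without tomatine 3 the second of these was 0.27 (adjusted p = 0.0147). GSC2 was 6-fold higher with fenpropimorph than with tomatidine (log2 fold change 2.58 ± 0.118) and 7.71-fold higher than with tomatine (2.95 ± 0.118). CWP1 was lower with fenpropimorph than with tomatidine (-0.38 ± 0.0922, adjusted p = 0.00758). FKS1 was the gene called in neither, with 95% intervals of -0.12 to 0.14 and -0.18 to 0.08.

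The glycoalkaloid and its aglycone, which differ by the sugars, were given at different doses. Between tomatine and tomatidine 1 of the 10 genes was called, higher with tomatine, against 5.09% of all probe sets (2.2% higher). CWP1 was 1.29-fold higher with tomatine (log2 fold change 0.37 ± 0.0922, limma adjusted p = 0.0409), in each of the 3 days. That call was lost in 10 of the 12 fits that left out 1 array, with log2 fold changes of 0.32 to 0.40 and adjusted p-values up to 0.147. The groups did not overlap in 5 of the 10 genes, against 25.3% of all probe sets. Besides CWP1 these were YPS3 at 0.28 (95% interval 0.09 to 0.46, adjusted p = 0.0833), GSC2 at -0.36 (-0.62 to -0.10, adjusted p = 0.109), SLT2 at 0.15 (0.01 to 0.29, adjusted p = 0.231) and PST1 at -0.20 (-0.44 to 0.04, adjusted p = 0.346). YPS3 was called without fenpropimorph 1 or fenpropimorph 3 and with bright probe sets only (adjusted p = 0.0318, 0.0336 and 0.0365), and GSC2 without tomatidine 3 (-0.49, adjusted p = 0.0321). For FKS1, YPS1, CRH1, PIR3 and SED1 the groups overlapped and the log2 differences lay between 0.01 and 0.08.

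Each gene has a close relative on the array, and the pairs are given side by side for fenpropimorph against control, without a test of the difference within a pair. SLT2 at 1.16 stood beside its paralogue KDX1, a kinase-like protein of the same pathway, which was called higher by 0.75 ± 0.108 on the log2 scale at a dim signal of 16.9 to 18.3 in control and 27.9 to 30.3 with fenpropimorph. No background level was set for the array, so the size of this difference and of others at dim signals is uncertain. CRH1 at 0.98 stood beside UTR2, a second transglycosylase, which fell by 0.41 ± 0.0783. PST1 at 1.10 stood beside ECM33, a GPI protein needed for wall structure, which fell by 0.28 ± 0.0651. YPS1 and YPS3, at 1.95 and 1.79, stood beside the yapsins MKC7, which was not called (-0.12, 95% interval -0.27 to 0.04), and YPS6, which rose by 0.56 ± 0.0599. PIR3 at 0.69 stood beside HSP150, of the same repeat family, which rose by 0.40 ± 0.0716. CWP1 at -0.89 stood beside CWP2, which fell by 0.26 ± 0.0825, and SED1 at 0.22 beside SPI1 at 0.26, neither called. In all, 4 of these 10 relatives rose and 3 fell, where GSC2 and FKS1 count as each other's relative, against 13.4% of all probe sets higher and 16.9% lower. The call of CWP2 was lost without any 1 control array or without fenpropimorph 1 (limma adjusted p = 0.0661 to 0.114).

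Among 25 genes of the signalling route itself, 10 rose and 3 fell with fenpropimorph, against 13.4% and 16.9% of all probe sets. Their median log2 fold change was 0.12, against -0.07 over all probe sets. The count of 10 became 9 with the culture day as a block or without tomatine 3. It became 8 without control 1, control 2, control 3, tomatidine 1, tomatidine 2, tomatidine 3, tomatine 1 or tomatine 2. RLM1, the transcription factor that Slt2 activates, had signals of 203, 213 and 166.5 in control and 352, 390.5 and 371 with fenpropimorph, a rise of 1.92-fold (log2 fold change 0.94 ± 0.0885, limma adjusted p = 7.95e-06). PTP2, a phosphatase of MAP kinases, rose 1.84-fold, and BAG7, a GTPase-activating protein for Rho1, rose 2.94-fold from a dim signal of 18.1 to 21.3. The kinases upstream of Slt2 were not called, with log2 fold changes of 0.10 for PKC1, -0.01 for BCK1, -0.01 for MKK1 and 0.02 for MKK2. Over all probe sets 4.44% were called with tomatidine and 4.36% with tomatine. With tomatidine 0 of the 25 were called (limma), and 1 was called higher when tomatidine 2 was left out. With tomatine 1 rose, the sensor gene WSC3 (0.36 ± 0.0686, limma adjusted p = 0.0182), which is named for being the only one. That call was lost without control 1, control 2 or tomatine 3 (adjusted p = 0.0646, 0.073 and 0.0675).

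Of 16 other genes reported to follow wall stress or Slt2, 9 rose with fenpropimorph and 0 fell, against 13.4% and 16.9% of all probe sets, and their median log2 fold change was 0.34, against -0.07. NCW2, a GPI-anchored wall protein, had signals of 255, 238 and 235 in control and 1434, 1775 and 1859.5 with fenpropimorph. It rose 6.93-fold (log2 fold change 2.79 ± 0.0905, limma adjusted p = 5.11e-09). SRL3 rose 6.14-fold (2.62 ± 0.0854), PUN1, a plasma membrane protein, 2.86-fold (1.52 ± 0.0915) and PRM5, known as a target of Rlm1, 2.06-fold (1.04 ± 0.108). With tomatidine 1 of the 16 rose and 3 fell, where 4.44% of all probe sets were called. SRL3 rose 1.67-fold (0.74 ± 0.0854, adjusted p = 0.000357), while PUN1, SPI1 and SVS1 fell by 0.40, 0.70 and 0.47 on the log2 scale. The count of 3 became 1 without control 1 or control 3 and 0 without tomatidine 2, and with the culture day as a block PUN1 was not called (adjusted p = 0.0543). Without tomatidine 2 the count of 1 that rose became 2. With tomatine 1 fell, YPS6 (-0.38 ± 0.0599, limma adjusted p = 0.0083), where 4.36% of all probe sets were called.

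The enzymes and structural proteins of the wall outside the 10 genes were called in both directions with fenpropimorph, as were all probe sets (13.4% higher, 16.9% lower, median log2 fold change -0.07), and the medians of the glucan, chitin and mannoprotein lists lay close to that of all probe sets. Of 21 genes of glucan synthesis and remodelling, 5 rose and 7 fell with fenpropimorph (median log2 fold change -0.05). GAS3, of the glucanosyltransferase family, fell by 0.91 ± 0.166, GAS5 by 0.48 ± 0.0797 and EXG1, the main exo-1,3-beta-glucanase, by 0.58 ± 0.0751, while SCW10, a glucanase-like wall protein, rose by 0.55 ± 0.154. The count of 5 that rose became 3 with the culture day as a block and 3 without control 3, tomatidine 1 or tomatine 1. It became 2 without control 2 or fenpropimorph 2 and 1 without fenpropimorph 3. SCW10 was not called without control 2 or fenpropimorph 3 (limma adjusted p = 0.0646 and 0.0668). Of 15 genes of chitin synthesis and turnover, 3 rose and 4 fell (median -0.01). The count of 4 that fell became 3 with the culture day as a block. It was also 3 without control 1, control 2, control 3, tomatidine 3 or tomatine 2. CHS1, the chitin synthase of wall repair, rose 1.86-fold (log2 fold change 0.90 ± 0.0795, limma adjusted p = 4.84e-06), and CHS2, that of the septum, fell by 0.48 ± 0.0604. Of the precursor enzymes GNA1 fell by 0.44 and PCM1 rose by 0.40. Of 16 other wall mannoproteins, 4 rose and 4 fell (median -0.05). Without control 1, 5 rose and 3 fell. The count of 4 that fell was also 3 without control 2 or control 3, and it was 5 without tomatidine 2, tomatidine 3 or tomatine 2. TIP1 fell the most of the 16, with signals of 2304, 2725 and 2254 in control, 806, 658 and 614 with fenpropimorph and 1409, 1260.1 and 1510.1 with tomatidine. It was 3.52-fold lower with fenpropimorph (-1.81 ± 0.111) and 1.74-fold lower with tomatidine (-0.80 ± 0.111). HPF1, a wall mannoprotein, fell by 0.51 ± 0.0756 with fenpropimorph. Of the 4 other yapsins, YPS6 and YPS7 rose with fenpropimorph, YPS7 not being called without control 2, control 3, fenpropimorph 2 or fenpropimorph 3. In the glucan and chitin lists limma called 0 genes with tomatidine and 0 with tomatine, against 4.44% and 4.36% of all probe sets. Without tomatine 2, 1 gene of the glucan list was called higher with tomatine. Some genes stand in more than 1 list.

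**Figure D4:**
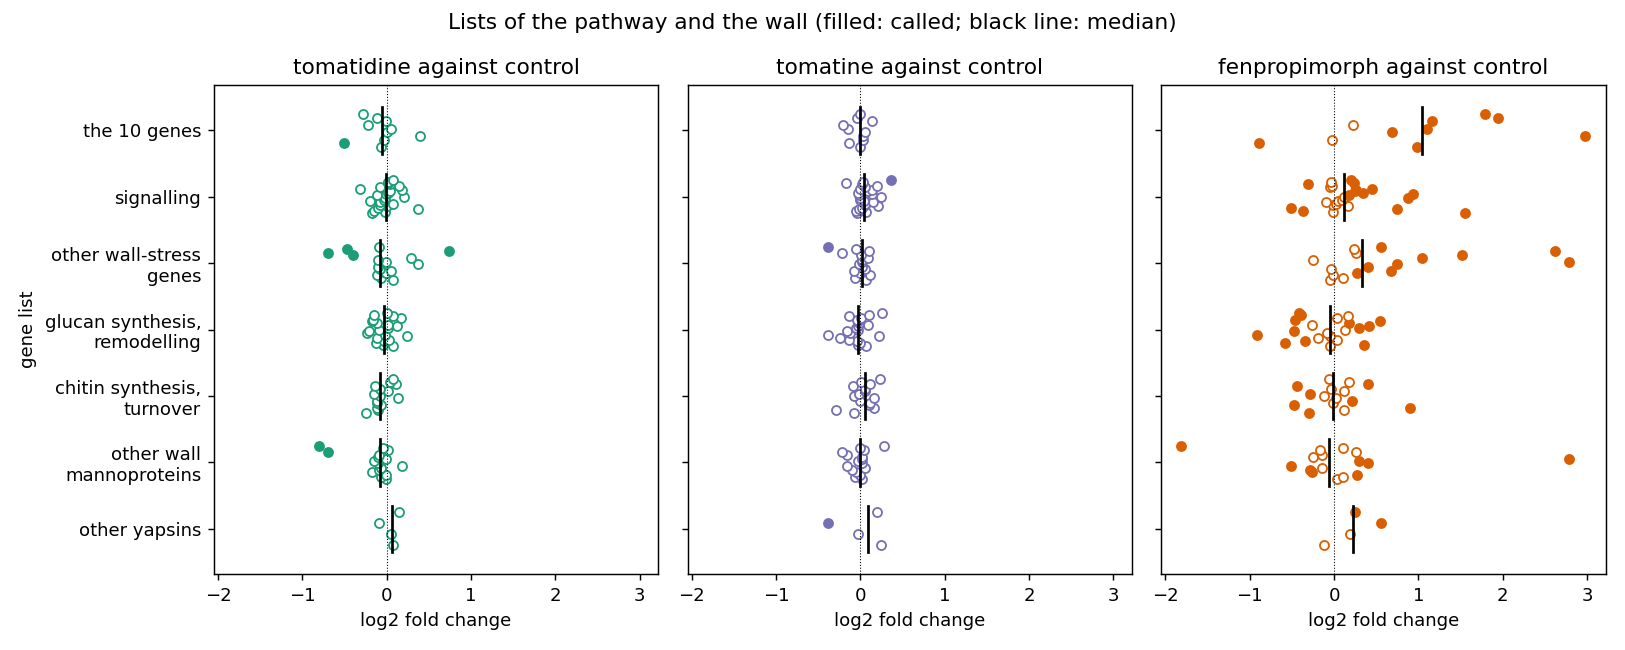
Log2 fold change against control (horizontal axis) of the 10 genes and of the members of 6 further lists (rows), with a panel for each compound, filled points for called genes and a black line at each median. With fenpropimorph the median of the 10 genes lies at 1.04 and those of the other lists between -0.05 and 0.34.

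The genes most like each member were found by the root mean square difference of log2 signals over the 12 arrays, each gene centred on its own mean, a measure in which the gap between fenpropimorph and the rest weighs most. GSC2 was nearest to YHR138C (0.186) and NCW2 (0.209), against a median of 1.27 over all genes. YPS1 was nearest to PRB1, the vacuolar proteinase B (0.0634), and to GND2, a 6-phosphogluconate dehydrogenase (0.1). YPS3 was nearest to RCR1 (0.0985) and then to YPS1 (0.108), the only case in which another member came up. SLT2 and CRH1 shared FLC1, of a family of flavin transporters, among their 2 nearest (0.0778 and 0.0842), with EDC2 for SLT2 (0.0881) and UBC5 for CRH1 (0.0739). PST1 was nearest to NDE2, an external NADH dehydrogenase (0.0857), and ARA1 (0.101), and PIR3 to IGO1 (0.0985) and SIP5 (0.1). CWP1 was nearest to FIG2, a wall adhesin of mating cells (0.157), and PAM16 (0.159). For FKS1, whose own spread was 0.0447, the nearest were RPP0 (0.0296) and YIF1 (0.0331), and for SED1 they were KSP1 (0.0668) and YGR111W (0.0679).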

How the data were processed

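The deposited table holds 1 intensity per probe set and array, computed by the authors with RMA according to the submitters' processing notes (version not given in the sources used here). They are on a linear scale (1.84 to 21252), and log2 of each was taken here. Without the 60 array controls, 9275 probe sets entered the tests, and 6504 of them name exactly 1 gene in the platform annotation. With limma 3.58.1 in R 4.3.3, the 12 arrays were described by 1 model of the 4 groups, without a day term, using two-sided moderated tests and Benjamini-Hochberg adjustment over the 9275 probe sets. The procedure was tested on simulated data, and the outcome is not given here. Figures were drawn with matplotlib 3.10.9.

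The members, the further gene lists and the rule for naming genes were chosen with earlier results of these data known. The rule took all members and their relatives, the 4 called genes with the largest change in each list that moved the same way on all 3 days, and the 2 nearest patterns of each member. WSC3, SVS1, PKC1, BCK1, MKK1 and MKK2 were named after their values were seen. WSC1 was matched under its other symbol, SLG1. The same replicate number means the same culture day, per the series' design text, so the numbers pair the cultures. Deviations from the group means correlated at 0.0351 on average between cultures of a day (18 pairs, -0.203 to 0.236). The p-values rest on the spread among the 3 cultures of each group. Alternatives were a day block, other normalizations, offsets, filters, probe set rules, priors and fits without 1 array. No sequence was used here.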

Additional observations from a re-analysis of the deposited data

How the results depend on the processing

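Besides the fit reported, 9 other settings and 12 fits that each left out 1 array were run. The number of members called with fenpropimorph against control stayed at 8 in the 9 settings and at 8 to 9 without 1 array, and against tomatidine and against tomatine it was 9 throughout. With tomatine against control it was 0 throughout. In the test among the 4 groups it was 9, and 8 to 9 without 1 array. With tomatidine against control it was 3 instead of 1 when only bright probe sets were tested, and 1 to 2 without 1 array. With tomatine against tomatidine it was 2 instead of 1 for bright probe sets only, 0 after quantile normalization, and 0 to 2 without 1 array; the cause was not tested. Over all probe sets, with only the 2 compared groups in the fit the counts were 252 for tomatidine (412 in the full fit), 121 for tomatine (404) and 261 for tomatine against tomatidine (472), where fewer arrays enter the fit. Adding 16 before the log gave 625 for tomatine. Without 1 array these counts ranged from 221 to 402, from 83 to 397 and from 261 to 484. With the culture day as a replicate block, 372 probe sets were called with tomatidine, 411 with tomatine and 2762 with fenpropimorph, and the block changed no call of the 10 members. Among the further genes named, it ended the call of PUN1 with tomatidine (adjusted p = 0.0543) and added that of SVS1 with fenpropimorph (0.0264). In no fit did a called member change direction.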
